A study of Mus musculus with 30 samples.

Results

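Keratins and claudins, the intermediate filament and tight junction proteins by which epithelial cells are recognised, were followed across 10 mouse tumour lines. Members were all rows of the deposited table whose symbol is Krt or Cldn followed by a number alone, and 73 of 55291 rows met this, 50 keratins and 23 claudins. The libraries, 3 for each line, are labelled as CD45+ immune cells infiltrating subcutaneous tumours. The labels' protocol describes RNA from suspensions of dissociated tumour and names no step that sorts CD45+ cells, so it is not known if a value belongs to sorted cells or to the whole suspension. They came from the renal carcinoma Renca, the mammary carcinoma EMT6, the Lewis lung carcinoma LL2, the colon carcinomas CT26 and MC38, CT26NYESO1 and MC38OVA (named for the antigens NY-ESO-1 and ovalbumin that they carry), the fibrosarcoma CMS5a, and the melanoma sublines B16F1 and B16F10. Tumours were dissociated with the enzyme mix TTDR at a length of 10 mm, and the stated aim of the series was to find cancer types suited to OK-432, a bacterial preparation given into tumours. The labels speak of mice with and without OK-432 for 24 hours and of BALB/cJ or C57BL/6J hosts, tie neither to a library, and give no age or sex. Treatment and host strain were therefore not groups here and cannot be told apart from the lines. Nothing says that the 3 libraries of a line came from separate mice, so p values measure only the spread between these libraries.

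Keratins form filaments only as pairs of a type I (acidic) and a type II (basic) chain. Simple epithelia make Krt8 with Krt18, Krt19 or Krt20, stratified epithelia use others such as Krt5 with Krt14, and hair and nail have a set of their own. Claudins are membrane proteins that seal the space between epithelial or endothelial cells or form ion pores in it, and each tissue has its own mixture. Most members are not typical of leukocytes, whereas carcinoma cells often keep the keratins and claudins of the epithelium they came from.

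Values are TPM, which are scaled for transcript length and library size, so that levels of different genes can be set side by side. Sequencing depth is unknown, so no value has a counting interval. The labelled leukocytes were seen in every library: Ptprc, which encodes CD45, ran from 2.7 TPM in a B16F10 library to 215 TPM in an MC38OVA library, and the sum of 10 leukocyte genes from 141 TPM (B16F1) to 2628 TPM (MC38OVA). Genes of other cells were present as well, with a mean sum of 7 melanocyte genes of 11986 TPM in B16F10 and 4536 TPM in B16F1 against at most 1.10 TPM in any other line. Fewer cells of a type and less RNA per cell cannot be told apart in such bulk samples. Keratins took 0.000466% (B16F10) to 0.200% (Renca) of a library's TPM, and claudins 0.00140% (LL2) to 0.0604% (Renca). Mitochondrial transcripts took 9.17% (EMT6) to 39.0% (B16F1), which limits how TPM of other genes compare between libraries.

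Most members were near or at 0. Of the 73, 47 stayed below 1 TPM in every library and 10 of these were listed at 0 in all 30 libraries. The filter used for testing (1 TPM or more in at least 3 libraries) kept 23, 11 keratins and 12 claudins, and removed 3 members that reached 1 TPM in fewer libraries (Cldn14, Cldn24 and Krt79). Krt80 and Cldn12 alone were at 1 TPM or more in all 30 libraries. Keratins of hair and nail (13 in the table) and of the inner root sheath and companion layer of the hair follicle (9) had no tested member, and the highest values among them were 0.597 TPM for Krt87 in a B16F10 library and 0.0835 TPM for Krt25. Of 18 stratified keratins 6 passed, and of 6 simple keratins 5, all but Krt23, whose highest library had 0.0886 TPM. A gene was called when limma's Benjamini-Hochberg adjusted p was under 0.05 with a difference of at least 1 in log2(TPM + 1). Over the 10 lines, limma's F test called 23 of 23 members tested, beside 85.5% of all 17944 genes tested; several members passed the filter only through their high line, so this count had to be high and is no evidence. The heat map of these members shows 3 kinds of pattern: a broad low level (Krt80, Cldn12), blocks shared by a few lines (Krt8, Krt18, Cldn9), and single bright lines (Krt20, Cldn3, Cldn4).

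**Figure D1:**
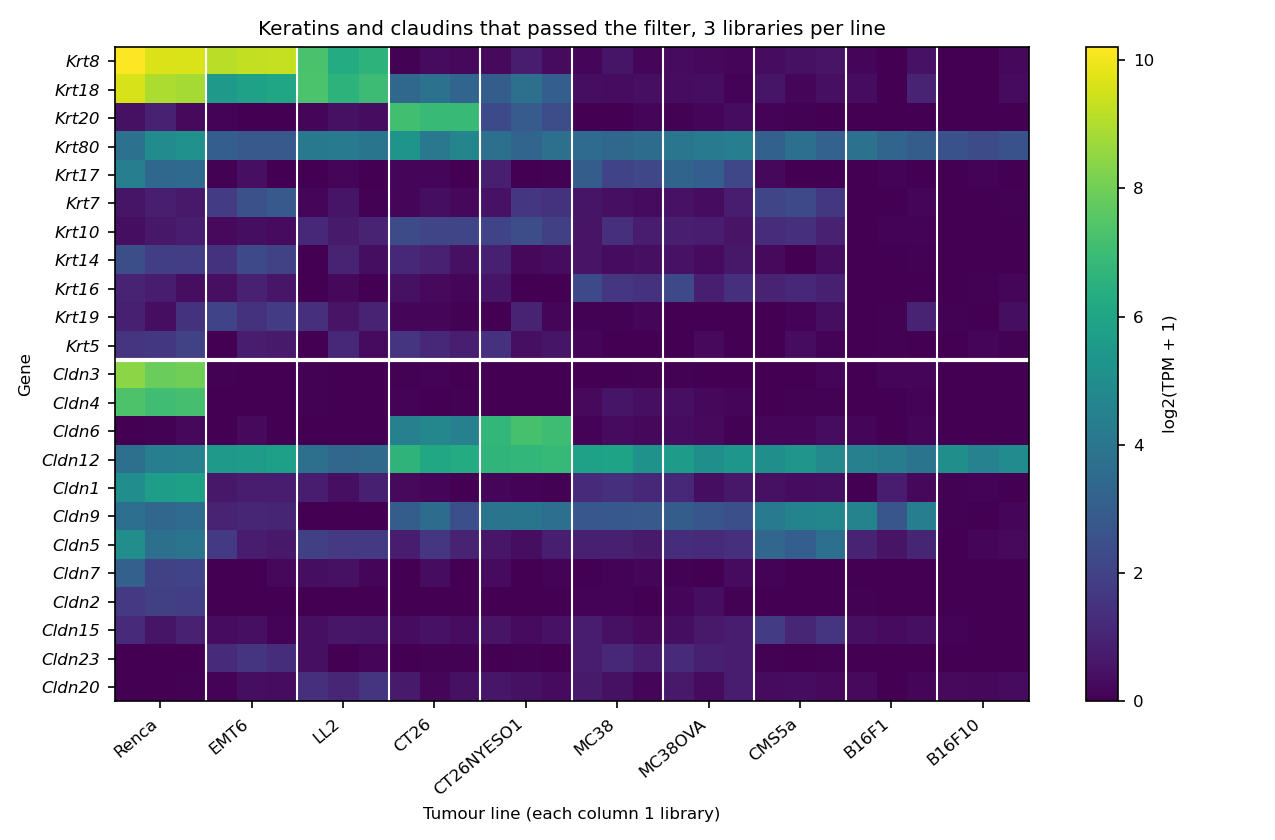
Levels of the 23 members that passed the filter (rows, keratins above the white line and claudins below) in 30 libraries (columns, 3 per tumour line), as log2(TPM + 1) on a colour scale. Krt8 and Krt18 are bright in Renca, EMT6 and LL2, Krt20 in CT26, Cldn3 and Cldn4 in Renca, and Cldn6 in CT26 and CT26NYESO1.

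Krt8 separated 3 lines from the other 7, and its partner Krt18 was highest in the same 3. Krt8 (type II, chromosome 15, 101996698 to 102004482, minus strand, GRCm38) had 1179, 820 and 781 TPM in the Renca libraries, 568, 621 and 640 TPM in EMT6, and 154, 76.9 and 96.0 TPM in LL2. Every library of the other 7 lines had at most 0.773 TPM, so the groups did not overlap and the highest of those libraries lay far under the lowest LL2 library. Krt18 (type I, chromosome 15, 102028180 to 102032027, plus strand) had 778, 491 and 458 TPM in Renca, 160, 96.4 and 128 TPM in LL2, and 43.8, 56.1 and 64.8 TPM in EMT6. Unlike Krt8 it was also measured in CT26 (9.65, 13.2 and 9.17 TPM) and CT26NYESO1 (6.98, 12.7 and 7.39 TPM), while the remaining 5 lines had at most 0.978 TPM. Against the mean of the other 9 lines, limma gave Krt8 a difference of 7.84 ± 0.16 (SE, log2(TPM + 1)) in Renca, 7.20 ± 0.16 in EMT6 and 4.38 ± 0.16 in LL2. Krt8 passed the filter through the 9 libraries of these 3 lines alone, so its differences are a description with no test. For Krt18 the differences were 6.78 ± 0.19, 3.07 ± 0.19 and 4.39 ± 0.19 in the same order, all called.

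The order of the 3 lines differed between the partners. For Krt8 it was Renca, EMT6, LL2, and for Krt18 Renca, LL2, EMT6. Within a library the ratio of Krt8 to Krt18 was 13.0, 11.1 and 9.87 in EMT6, 1.51, 1.67 and 1.71 in Renca, and 0.961, 0.798 and 0.747 in LL2, so the ranges of the 3 lines did not overlap. In CT26 the ratio was at most 0.0179 and in CT26NYESO1 at most 0.0609, that is, Krt18 without a comparable level of Krt8. Summed over all members of each type, type II keratins were 10.3 ± 1.3 times the type I keratins in EMT6 (SD, n = 3), 1.63 ± 0.13 times in Renca, 0.955 ± 0.10 times in LL2 and 0.198 ± 0.069 times in CT26. The surplus of type II over type I in EMT6 was therefore that of Krt8, which made up 89.3% of all keratin TPM there against 7.99% for Krt18.

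The 3 lines rich in Krt8 were also compared with each other, a choice made with their levels known. EMT6 was higher than LL2 in Krt8 (difference 2.53 ± 0.22, limma adjusted p = 2.5e-10) and lower in Krt18 (difference -1.20 ± 0.26, adjusted p = 0.00052, but 0.10 with a pseudocount of 0.1). Renca was higher than LL2 in both, by 3.11 ± 0.22 for Krt8 and 2.15 ± 0.26 for Krt18. Between Renca and EMT6 the Krt18 difference of 3.34 ± 0.26 was called, and that of Krt8 was not.

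Krt8 and Krt18 lie next to each other on chromosome 15, on opposite strands, 23.697 kb apart and with no coding gene between, although the type I and type II keratins otherwise sit in separate clusters. The stretches before their starts are shown because these neighbours were high in the same 3 lines. They are the RefSeq promoter sequences (GRCm38.p6, 5′ to 3′ on the gene's strand) up to the first base of the gene in GENCODE M21, chr15:102004483-102004592 (minus strand) for Krt8 and chr15:102027966-102028179 (plus strand) for Krt18. Capitals mark a match on either strand to 1 of 5 motifs. These were the TATA box, searched as TATAAA, and the GC box of Sp factors, searched as GGGCGG. The site of AP-1 was searched as TGANTCA. The site of Grainyhead factors, which drive epithelial genes, was searched as AACCNGTT. The E-box bound by Snail and Zeb factors, which repress them, was searched as CACCTG.
Krt8: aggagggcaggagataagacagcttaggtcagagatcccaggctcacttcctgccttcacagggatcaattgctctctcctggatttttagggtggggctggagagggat
Krt18: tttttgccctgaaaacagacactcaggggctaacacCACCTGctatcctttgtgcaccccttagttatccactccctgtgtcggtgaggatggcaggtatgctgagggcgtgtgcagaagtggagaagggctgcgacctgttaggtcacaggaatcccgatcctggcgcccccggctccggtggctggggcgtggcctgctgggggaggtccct
The Krt18 stretch held 1 CACCTG and the Krt8 stretch none of the 5. In the full windows of 250 bases before the RefSeq start, CACCTG was found in both genes, starting 111 bases before the start in Krt8 and 214 bases before it in Krt18, and it is in 17.2% of 32817 promoter windows of that length. A match is a description of the letters and not a site.

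A pair of other transcripts bears on how Krt8 was measured. Gm36026, a long noncoding RNA overlapping Krt8 on the opposite strand, had mean levels of 3.47 TPM in Renca, 2.68 in EMT6 and 0.798 in LL2. The processed pseudogene Krt8-ps on chromosome 7 had 5.10, 5.01 and 0.936 TPM in the same lines. Both were at most 0.0889 TPM in any other line, and of all genes outside the families their line means were the most like those of Krt8 (Pearson r = 0.98 and 0.97 over 10 line means, a description). How far their reads were shared with Krt8 was not tested, and the sources used here do not say if quantification used strand. The mean of Krt8 in Renca, 926 TPM, was far above either. The next most similar were B4galt7, a galactosyltransferase of proteoglycan synthesis (r = 0.96), the ubiquitin protease gene Usp43 (r = 0.96) and Pcbd1, a pterin dehydratase and cofactor of HNF1 (r = 0.95), whose mean was 88.4 TPM in Renca, 21.5 in EMT6 and 2.82 in LL2.

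**Figure D2:**
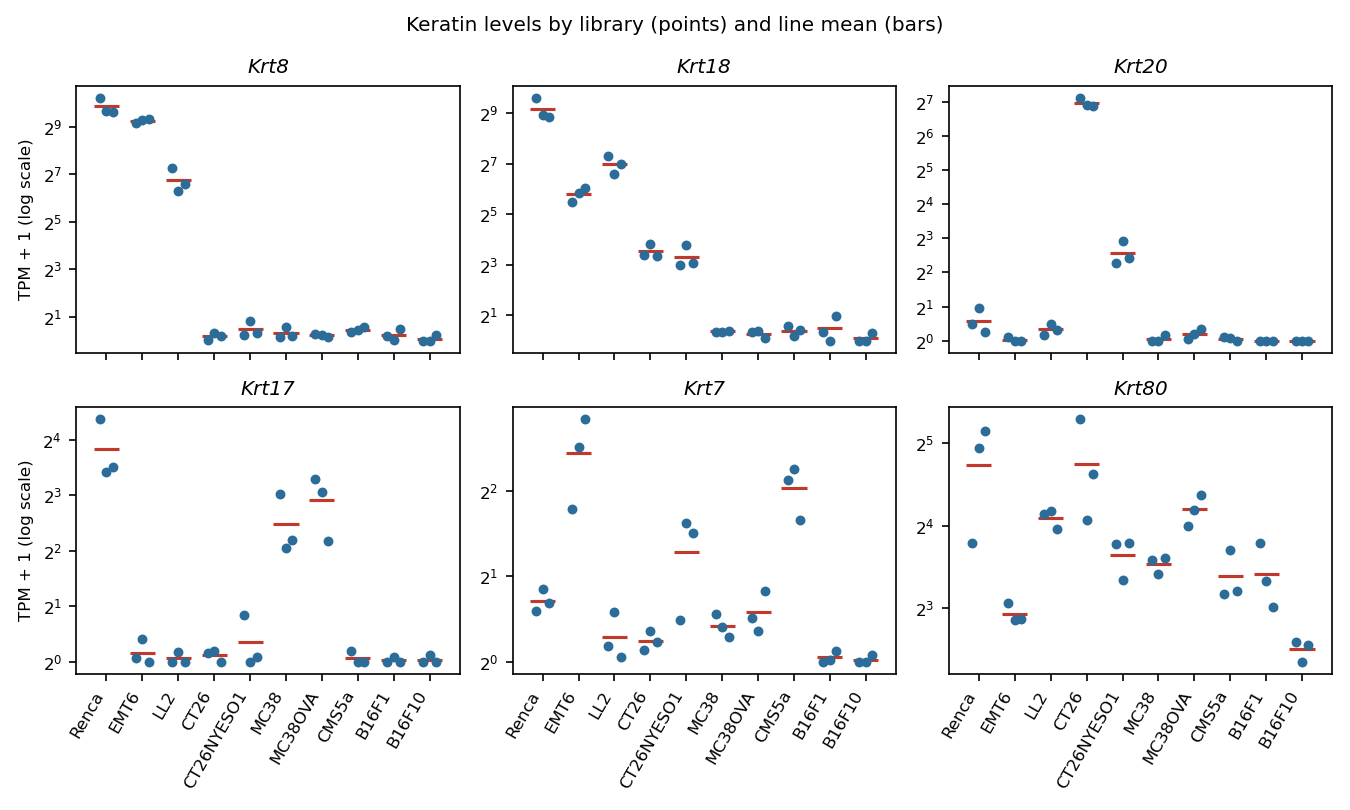
TPM + 1 on a log2 axis for 6 keratins, with 1 point per library, 3 libraries per line along the horizontal axis, and a red bar at the mean TPM of the line plus 1. Krt8 and Krt18 stand high in Renca, EMT6 and LL2, Krt20 in CT26, Krt17 in Renca and both MC38 lines, while Krt80 is spread over all lines.

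The remaining simple keratins each followed a pattern of their own. Krt20, a type I keratin of intestinal epithelium and Merkel cells (chromosome 11, 99428403 to 99438150, minus strand), had 136, 119 and 116 TPM in CT26 and 3.88, 6.56 and 4.39 TPM in CT26NYESO1. No library of another line exceeded 0.929 TPM, and MC38, the other colon carcinoma, had at most 0.119 TPM. Krt20 was 6.54 ± 0.12 higher in CT26 than in the mean of the other 9 lines, and 1.63 ± 0.12 higher in CT26NYESO1. It passed the filter through the 6 libraries of these lines alone, so both differences are a description with no test. In CT26 it held 74.0% of the keratin TPM and exceeded Krt18 by 14.1, 9.01 and 12.7 times within the libraries.

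Krt7, a type II keratin of glandular and ductal epithelium, had 2.46, 4.72 and 6.15 TPM in EMT6 and 3.36, 3.78 and 2.16 TPM in the fibrosarcoma CMS5a, and the 2 ranges overlapped. Its differences from the other lines were 1.77 ± 0.18 in EMT6 and 1.36 ± 0.18 in CMS5a. Krt7 was at 1 TPM or more in 8 libraries and would not have passed the filter without these lines. Both differences are therefore a description with no test. Krt19, a type I keratin of ducts and of many carcinomas, was called in EMT6 alone (3.10, 1.81 and 2.48 TPM, difference 1.42 ± 0.20, limma adjusted p = 1e-06), where all 3 libraries lay above every other library of the series. The highest Krt19 value elsewhere was 1.78 TPM, in Renca, so the gap was small.

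Of the stratified keratins, Krt80 and Krt17 had the highest levels. Krt80, a type II keratin found in many epithelia, was widespread: 38.1, 15.8 and 23.8 TPM in CT26, 12.8, 29.6 and 34.4 in Renca, and down to 5.0, 4.10 and 4.87 in B16F10. The B16F10 libraries lay below all others (difference -1.33 ± 0.21, limma adjusted p = 4.8e-06), and with so few other keratins there Krt80 made up 85.6% of keratin TPM in B16F10 and 85.0% in B16F1. Rises of Krt80 were called in CT26 (1.08 ± 0.21) and Renca (1.04 ± 0.21) but fell under the threshold of 1 without CT26 replicate 1 (0.77), and without Renca replicate 2 (0.88) or 3 (0.78). The B16F10 fall was -0.83 after median-ratio scaling, and the CT26 rise 0.98, both under that threshold as well. An antisense transcript overlapping Krt80, Gm35853, had line means of 0.125 to 3.01 TPM.

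Krt17, a type I keratin of basal and wounded epidermis, had 19.6, 9.64 and 10.3 TPM in Renca, 8.73, 7.32 and 3.50 in MC38OVA and 7.06, 3.12 and 3.55 in MC38. No other library passed 0.802 TPM. Its differences from the other lines were 3.09 ± 0.20, 2.06 ± 0.20 and 1.59 ± 0.20 in the same order. Krt17 passed the filter through these 9 libraries alone, so the differences are a description with no test. Its neighbour Krt16, also a keratin of wounded and hyperproliferative epidermis and 7.314 kb away on chromosome 11, reached 3.81, 2.07 and 1.85 TPM in MC38 (difference 1.29 ± 0.18, called) and 3.81, 0.793 and 1.69 TPM in MC38OVA (not called). In Renca Krt16 stayed at 0.315 to 1.03 TPM, so the neighbours did not rise together there.

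Krt14 and Krt5, the partners of basal keratinocytes, stayed low. Krt14 had 4.53, 2.7 and 2.57 TPM in Renca and 1.82, 3.83 and 3.07 TPM in EMT6 (differences 1.53 ± 0.17 and 1.38 ± 0.17), with overlapping ranges. It was at 1 TPM or more in 7 libraries and would not have passed the filter without these lines. Both Krt14 differences are therefore a description with no test. Krt5 was called in Renca (1.89, 2.18 and 2.88 TPM, difference 1.34 ± 0.19) and reached 2.0 TPM in a CT26 library. Krt10, the type I keratin of suprabasal epidermis, had 3.97, 3.38 and 3.34 TPM in CT26 and 3.19, 4.30 and 2.86 TPM in CT26NYESO1 (differences 1.42 ± 0.13 and 1.37 ± 0.13, called), and its usual partner Krt1 had no library above 0.586 TPM. Markers of epidermis did not follow these keratins in every line: of 6 epidermal genes tested, 3 were higher in EMT6 (10.2% of all genes), 3 in MC38 (8.24%) and 3 in MC38OVA (10.2%). In Renca none was higher (12.4%) and 1 was lower (10.5%). CT26 had 1 higher (8.25%) and 1 lower (4.91%), and CT26NYESO1 1 higher (6.84%) and 1 lower (5.71%). One of the 3 in EMT6 passed the filter through that line alone, and 1 other was lower in EMT6 (4.70%). The part of these genes in the keratin values was not tested. The levels differed between the lines: Sbsn, which encodes suprabasin, had 30.2 TPM in MC38 against 1.75 in EMT6, and Lgals7, a lectin of stratified epithelium, 208 TPM in EMT6 and 341 in CT26 against 17.4 in MC38.

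Claudins peaked in a line that was also rich in keratins, but only partly. The summed claudins were 526 ± 71 TPM in Renca (SD, n = 3), 251 ± 25 in CT26NYESO1 and 114 ± 13 in CT26. They were lowest in LL2 (16.5 ± 2.5 TPM), although its keratin sum (257 ± 70 TPM) was exceeded only by those of Renca (1552 ± 390) and EMT6 (683 ± 50). In EMT6 the claudin sum of 53.4 ± 4.5 TPM was 90.2% Cldn12. High Krt8 thus went with high epithelial claudins in Renca and not in EMT6 or LL2.

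Cldn3 and Cldn4, barrier claudins of many epithelia and both receptors of a clostridial enterotoxin, were measured in Renca and hardly elsewhere. Cldn3 (chromosome 5, 134986214 to 134987472, plus strand) had 342, 231 and 256 TPM in the Renca libraries and at most 0.141 TPM in any other library. Cldn4 (chromosome 5, 134945119 to 134946934, minus strand) had 163, 135 and 145 TPM in Renca and at most 0.480 TPM elsewhere. Their differences from the other 9 lines were 8.06 ± 0.09 and 7.12 ± 0.08 (SE), and of all members in Renca only Krt8 lay between them. Both genes entered testing through the 3 Renca libraries alone, so these differences are a description with no test. The ratio of Cldn3 to Cldn4 within the Renca libraries was 2.1, 1.72 and 1.77. In EMT6 Cldn4 was listed at 0 in every library, and in CT26NYESO1 and B16F10 both genes were.

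The 2 genes are neighbours on chromosome 5, on opposite strands and 39.279 kb apart with no coding gene between. Their promoter windows (RefSeq, GRCm38.p6, chr5:134985964-134986213 on the plus strand for Cldn3 and chr5:134946935-134947184 on the minus strand for Cldn4) are shown because both genes were high in the same single line, with capitals for the same 5 motifs.
Cldn3: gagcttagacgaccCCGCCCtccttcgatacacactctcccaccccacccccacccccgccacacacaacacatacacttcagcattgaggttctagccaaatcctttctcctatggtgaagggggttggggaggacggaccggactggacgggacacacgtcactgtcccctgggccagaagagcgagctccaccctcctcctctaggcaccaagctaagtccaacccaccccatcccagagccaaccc
Cldn4: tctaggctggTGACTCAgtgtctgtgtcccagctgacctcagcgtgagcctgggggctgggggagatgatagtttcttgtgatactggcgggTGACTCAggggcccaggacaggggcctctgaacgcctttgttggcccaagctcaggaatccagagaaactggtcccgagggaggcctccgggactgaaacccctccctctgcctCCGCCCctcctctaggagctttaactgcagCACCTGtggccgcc
The Cldn4 window held 2 copies of TGANTCA, a motif in 6.75% of all windows, with 1 GC box near its start and CACCTG 14 bases before it. The Cldn3 window held a single GC box, a motif in 32.7% of all windows, and no AACCNGTT was found in either (1.78% of all windows). These windows are thus unlike in the motifs searched, and absence of a match says only that these letters are not in them.

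Renca held further claudins at lower levels. Cldn1, a sealing claudin of skin and kidney, had 30.9, 50.9 and 55.1 TPM against at most 1.65 TPM in any other library (difference 5.01 ± 0.15, limma adjusted p = 7.2e-21). Cldn7, a claudin of distal nephron and gut, had 7.79, 3.03 and 3.10 TPM and no more than 0.393 TPM elsewhere. Cldn2, the cation and water pore of the proximal tubule, had 2.24, 2.84 and 2.64 TPM, against at most 0.316 TPM elsewhere. The differences were 2.29 ± 0.14 for Cldn7 and 1.80 ± 0.06 for Cldn2. Like Cldn3 and Cldn4, these 2 passed the filter through the 3 Renca libraries alone, so their rise in Renca was fixed by the filter and is no evidence, and leaving out 1 of these libraries removes all 4 from testing. Other claudins of kidney tubules, Cldn8, Cldn10, Cldn16 and Cldn19, had no library above 0.139 TPM.

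**Figure D3:**
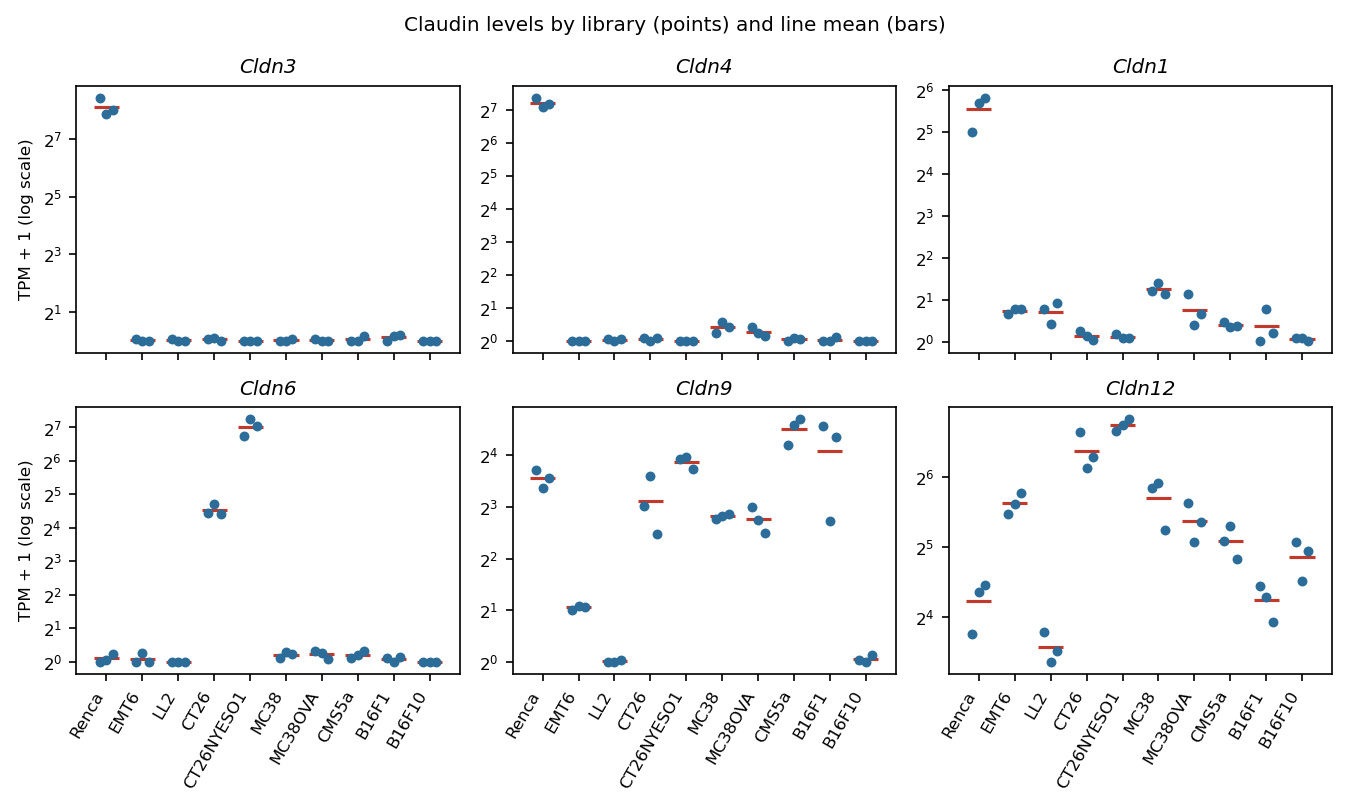
TPM + 1 on a log2 axis for 6 claudins, with 1 point per library, 3 libraries per line along the horizontal axis, and a red bar at the mean TPM of the line plus 1. Cldn3, Cldn4 and Cldn1 stand high in Renca, Cldn6 in CT26NYESO1 and then CT26, Cldn9 in most lines but not in LL2 or B16F10, and Cldn12 in all lines.

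In all, 13 of 23 members tested were higher in Renca than in the other lines (12.4% of all genes tested) and 2 were lower (10.5%). The 13 hold Cldn2, Cldn3, Cldn4 and Cldn7, whose rise the filter fixed. Of the 19 members that passed the filter without the Renca libraries, 9 were higher, beside 10.8% of the 17470 genes that did so. Krt8, Krt14 and Krt17 are among the 9, and would not have passed without Renca and the other lines where they were high. The 13 were 6 keratins and 7 claudins, and the 2 that were lower were Cldn12 (-1.07 ± 0.16, -0.86 without Renca replicate 1) and Cldn6 (-1.28 ± 0.10). Cldn6 passed the filter through CT26 and CT26NYESO1 alone, so its fall in Renca is a description with no test. Against EMT6, 11 members were higher in Renca and 3 lower (28.2% of all genes called in either direction), and against LL2, 12 higher and 1 lower (32.0%), with the same 4 claudins among the higher in both. Of all genes called between Renca and EMT6, 43.6% were higher in Renca, and 55.3% after median-ratio scaling. The members lower in Renca than in EMT6 were Krt7 (-1.67 ± 0.24), Cldn12 (-1.42 ± 0.22) and Cldn23 (listed at 0 in Renca), and the member lower than in LL2 was Cldn20 (-1.34 ± 0.15). Cldn23 passed the filter through EMT6 alone and Cldn20 through LL2 alone. Differences of Cldn23 in pairs with EMT6, and of Cldn20 in pairs with LL2, are therefore a description with no test. Between EMT6 and LL2 9 members were called (18.1% of all genes), of which 6 were higher in EMT6, among them Krt7 (2.11 ± 0.24), Cldn12 (2.06 ± 0.22) and Krt14 (1.48 ± 0.22). Krt7 would not have passed the filter without EMT6 and CMS5a, nor Krt14 without Renca and EMT6. The differences of Krt7 and Krt14 given here are therefore a description with no test.

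The libraries of Renca differed among themselves in these genes. Replicate 1 had the highest Krt8, Krt18, Krt17, Krt14, Cldn3, Cldn4, Cldn5 and Cldn7 of the 3, and the lowest Krt80, Krt5, Cldn1, Cldn2 and Cldn12. The markers of other cells did not move one way with it: the sum of 10 leukocyte genes was 659 TPM in replicate 1 against 585 and 647 TPM, although Ptprc, 1 of the 10, was lowest there (9.28 TPM against 29.9 and 28.1 TPM). The sum of 7 fibroblast genes was 387 TPM against 756 and 867 TPM, and that of 10 endothelial genes 228 TPM against 163 and 207 TPM. Mitochondrial transcripts took 15.5% of TPM in replicate 1 against 27.1% and 25.8% in replicates 2 and 3. The part of these differences in the member values was not tested.

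Other junction and epithelial genes were counted beside the members. Among 14 tested tight junction genes that are not claudins, 7 were higher in Renca than in the other lines (12.4% of all genes) and 1 lower (10.5%), and 3 of the 7 passed the filter through the Renca libraries alone. Examples were F11r, the adhesion molecule JAM-A (138, 145 and 152 TPM in Renca and at most 26.3 TPM elsewhere), Cxadr, a junctional immunoglobulin protein (68.4, 91.8 and 89.8 TPM, at most 2.0 elsewhere), and Crb3, a polarity protein (28.5, 17.3 and 15.7 TPM, at most 0.197 elsewhere). Ocln, which encodes occludin, the classical partner of claudins at the junction, did not share the pattern: it had 0.240, 0.0949 and 0.218 TPM in Renca and was highest in LL2, with 5.09, 2.91 and 3.49 TPM (difference 2.0 ± 0.09), the line through which alone it passed the filter. Of 11 tested epithelial adhesion genes, 7 were higher in Renca (12.4% of all genes) and 1 lower (10.5%), 5 were higher in EMT6 (10.2%) and 2 in LL2 (7.98%). The high line alone let 2 of the 7 and 1 of the 5 pass the filter. Cdh1, which encodes E-cadherin, had 55.3, 73.5 and 73.0 TPM in Renca and at most 5.46 TPM in any other library, EMT6 and LL2 included. Epcam, another epithelial adhesion molecule, had 9.75, 10.0 and 10.2 TPM in Renca and 1.85, 1.61 and 1.83 TPM in EMT6.

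Transcription factors of epithelia divided the lines differently again. Of 9 tested, 5 were higher in Renca (12.4% of all genes), 2 of them genes that passed the filter through Renca alone, and 4 in EMT6 (10.2%), with no call in the lower direction in either. In LL2, the third line rich in Krt8, none was higher (7.98%) and 1 was lower (6.53%). Pax8, a factor of kidney tubules, had 28.6, 48.1 and 47.8 TPM in Renca and at most 0.556 TPM elsewhere, and Trp63, the factor of basal epithelia, 16.4, 12.7 and 11.6 TPM in EMT6 and at most 2.29 TPM elsewhere. Ovol2 was found in both MC38 lines (11.2 to 16.6 TPM) and was at most 0.269 TPM elsewhere, while Krt8 and Krt18 were near 0 in these lines. The 5 genes with line means most like those of Cldn3 were Lrrc31, Cdh16, Trank1, Pou3f3 and Mir6358, each at r of 1.0 over 10 line means, which is a description of genes measured in 1 line alone. Cdh16, the kidney cadherin, had a mean of 366 TPM in Renca and at most 0.0593 TPM elsewhere.

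Vim, the intermediate filament gene of mesenchymal cells and leukocytes, was far above the keratins in every line but Renca. Its line means ran from 860 TPM in B16F10 to 4081 TPM in CT26. In Renca, Vim had 964, 958 and 1087 TPM, beside 1179, 820 and 781 TPM of Krt8. In EMT6 (4113, 3696 and 3187 TPM) and LL2 (2871, 1957 and 1966 TPM) high Krt8 stood beside much higher Vim.

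Cldn5, the main claudin of endothelium (chromosome 16, 18776847 to 18778262, plus strand), went with genes of that tissue. It had 31.7, 12.7 and 14.4 TPM in Renca, 9.21, 7.33 and 12.1 TPM in CMS5a, and 0, 0.141 and 0.181 TPM in B16F10, and no library of another line exceeded 2.77 TPM. The differences from the other lines were 3.01 ± 0.21 in Renca and 2.04 ± 0.21 in CMS5a, and -1.55 ± 0.21 in B16F10, all called by limma. The sum of 10 endothelial genes was 199 ± 33 TPM in Renca and 206 ± 25 in CMS5a (SD, n = 3) and lowest in B16F10 (13.4 ± 2.2). All 10 were higher in CMS5a than in the other lines (9.23% of all genes) and 7 of 10 in Renca (12.4%), and 8 of 10 were lower in B16F10 (23.2%). Within libraries the ratio of Cldn5 to Cdh5, the cadherin of endothelium, was 0.242, 0.160 and 0.288 in CMS5a, and 2.78, 0.732 and 0.597 in Renca. The Renca ratios lay above those of CMS5a, but replicates 2 and 3 of Renca overlapped with CT26 (0.716, 0.400 and 0.293) and B16F1 (0.390, 0.221 and 0.657), and the Renca mean of 1.37 rested on replicate 1. The part of endothelial cells in the Cldn5 values was not tested.

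**Figure D4:**
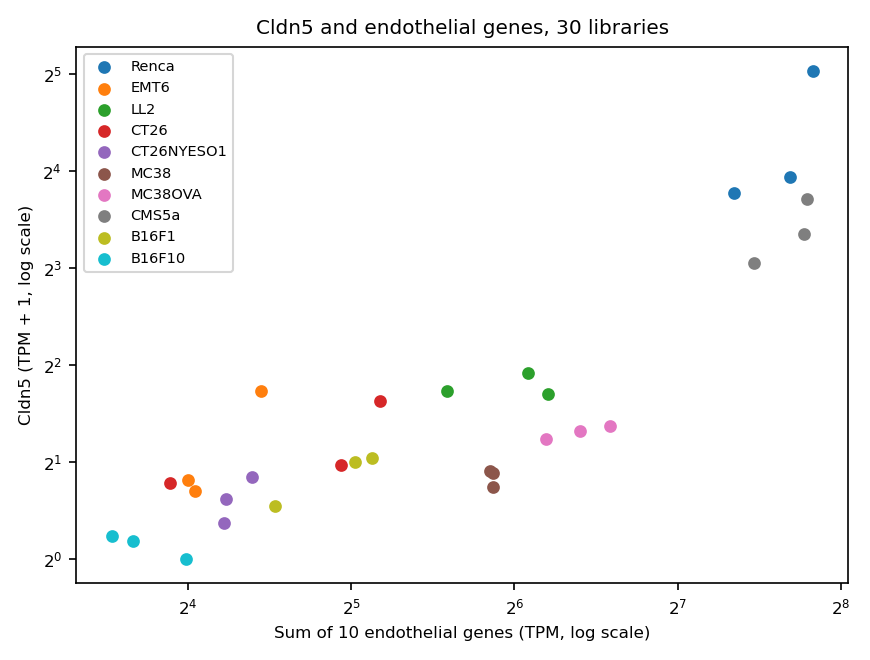
Cldn5 (TPM + 1, log2 axis) against the sum of 10 endothelial genes (TPM, log2 axis) in 30 libraries, coloured by line. The Renca and CMS5a libraries lie at the upper right, with endothelial sums of 163 to 228 TPM, and the B16F10 libraries at the lower left.

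Cldn6 and Cldn9, 2 closely related claudins best known from embryonic epithelia, are encoded 137 bases apart on chromosome 17 on opposite strands. Cldn6 (23679249 to 23682446, plus strand) had 107, 151 and 130 TPM in CT26NYESO1 and 20.9, 25.4 and 20.5 TPM in CT26, and no library of another line exceeded 0.258 TPM. Its differences from the other 9 lines were 6.41 ± 0.10 and 3.65 ± 0.10. Cldn6 passed the filter through the 6 libraries of these lines alone, so both differences are a description with no test. Cldn9 was spread more widely. Cldn9 (23682584 to 23684026, minus strand) had 17.2, 23.2 and 24.9 TPM in CMS5a, 22.8, 5.66 and 19.4 in B16F1, 14.1, 14.7 and 12.3 in CT26NYESO1, and 12.1, 9.34 and 10.7 in Renca. CT26 and both MC38 lines had 4.59 to 11.1 TPM, EMT6 1.01 to 1.13 TPM, and LL2 and B16F10 at most 0.0957 TPM.

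The 2 neighbours thus overlapped in the CT26 lines and not elsewhere. The ratio of Cldn6 to Cldn9 was 9.49 ± 1.7 in CT26NYESO1 and 3.23 ± 1.1 in CT26 (SD, n = 3), and at most 0.0594 as a mean in any other line where it could be formed. Called rises of Cldn9 were 2.16 ± 0.23 in CMS5a, 1.48 ± 0.23 in B16F1, 1.47 ± 0.23 in CT26NYESO1 and 1.10 ± 0.23 in Renca, the last 0.56, under the threshold of 1, when EMT6 and LL2 were left out of the reference. B16F10 had almost none of the Cldn9 of its sister subline: the difference from B16F1 was -3.83 ± 0.30 (limma adjusted p = 7.3e-11), the sole call among 23 members in that pair, where 20.9% of all genes were called. Replicate 2 of B16F1, with 5.66 TPM, was the lowest of its line and still far above the B16F10 libraries. Mitochondrial transcripts took 39.0% of TPM in that library against 12.1% and 18.6% in the others of B16F1, and their part was not tested.

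Cldn12, a claudin that lacks the usual binding motif of the family for scaffold proteins and is made by many tissues, was the leading claudin in 8 of the 10 lines. It had 100, 106 and 112 TPM in CT26NYESO1, 98.9, 68.6 and 77.2 in CT26, and 12.8, 9.23 and 10.4 in LL2. Differences were 1.76 ± 0.16 in CT26NYESO1 and 1.32 ± 0.16 in CT26, and -1.79 ± 0.16 in LL2, all called by limma. In B16F10, with 32.5, 21.7 and 29.7 TPM, it made up 98.0% of claudin TPM. Next to LL2, the lowest levels were in Renca (12.5, 19.5 and 21.0 TPM) and B16F1 (20.8, 18.5 and 14.2 TPM), whose ranges overlapped.

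The remaining tested claudins were near the threshold of 1 TPM. Cldn15, a cation pore of intestine, reached 2.43, 1.15 and 1.97 TPM in CMS5a (difference 1.02 ± 0.13, but under 1 without CMS5a replicate 1 or 3 or Renca replicate 2). Cldn23 reached 1.32, 1.98 and 1.49 TPM in EMT6 (1.13 ± 0.09) and Cldn20 1.67, 1.17 and 1.91 TPM in LL2 (1.03 ± 0.11). Cldn15, Cldn23 and Cldn20 would not have passed the filter without the libraries of CMS5a, EMT6 and LL2 in turn, so these 3 rises are a description. Cldn20 lies within Tfb1m on the opposite strand, which had line means of 6.61 to 13.3 TPM, and reads of the 2 genes cannot be told apart if strand was not used. The 11 untested claudins reached at most 1.40 TPM (Cldn24 in a B16F1 library), and Cldn17 was listed at 0 throughout.

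By line, the called rises beside Renca were 6 of 23 members in EMT6 (10.2% of all genes), 5 in CT26 (8.25%), 5 in CT26NYESO1 (6.84%), 4 in CMS5a (9.23%), 3 in LL2 (7.98%), 2 in MC38 (8.24%), 1 in MC38OVA (10.2%), 1 in B16F1 (8.52%) and 0 in B16F10 (5.28%). The counts in EMT6, CMS5a and LL2 each hold 1 claudin whose rise the filter fixed, and are 5, 3 and 2 without it. Krt7, Krt8, Krt14, Krt17, Krt20 and Cldn6 would not have passed the filter without the lines where they were high. Their rises stand in the counts of those lines. In B16F10 limma gave none of the 23 a positive difference, so 0 had an unadjusted p under 0.05 in that direction. Called falls were 10 in B16F10 (23.2% of all genes), 6 in B16F1 (13.2%), 5 in CMS5a (4.49%), 4 in LL2 (6.53%), 4 in MC38 (4.06%), 3 in EMT6 (4.70%), 3 in MC38OVA (3.59%), 2 in CT26NYESO1 (5.71%) and 1 in CT26 (4.91%). Among all genes called in B16F10, 18.6% were higher, and 40.8% after median-ratio scaling. The called falls with all 3 libraries below the other 27 were those of Krt80 and Cldn5 in B16F10. Most falls were of Cldn6 (8 lines), Krt8 (7), Krt18 (5) and Krt20 (5), against a mean that holds the few high lines. Cldn6, Krt8, Krt20 and Krt17 (4 lines) passed the filter only through lines where they were high. Their falls elsewhere stand in the counts above and are a description with no test. With EMT6, LL2 and Renca left out of the reference, the Krt8 falls were no longer called in any of the 7 lines, and in CMS5a, CT26NYESO1 and MC38 the sign turned.

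The 2 pairs in which a line was compared with the same line carrying a foreign antigen gave unlike results. In CT26NYESO1 against CT26, 3 of 23 members were called (2.27% of all genes): Cldn6 rose by 2.48 ± 0.14 (limma adjusted p = 5.9e-13), Krt20 fell by 4.42 ± 0.16 (adjusted p = 3.6e-17), and Krt80 fell by 1.03 ± 0.28 (adjusted p = 0.031). The library ranges of Cldn6 and Krt20 in the 2 lines did not overlap, nor did those of Krt80 (15.8 to 38.1 TPM in CT26, 9.16 to 12.8 TPM in CT26NYESO1). In limma the Krt80 call was lost without the filter on low values (adjusted p = 0.056) and in a fit of the 6 libraries of the pair (adjusted p = 0.11). It was also lost in limma when CT26 replicate 1 or 3 or any CT26NYESO1 library was left out (adjusted p from 0.057 to 0.29). Krt7 missed the threshold on size (difference 0.96 ± 0.24, limma adjusted p = 0.015). Krt18 was close to the same level in both lines (difference -0.25 ± 0.26, not called), so the ratio of Krt20 to Krt18 went from 9.01 to 14.1 in CT26 to 0.517 to 0.594 in CT26NYESO1.

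Genes outside the families also differed in this pair. Of 13 other intermediate filament genes tested, 3 were lower in CT26NYESO1 than in CT26 and none higher (2.27% of all genes called in either direction). Nefl and Nefm, the light and medium neurofilament chains, went from 37.0, 42.3 and 37.7 to 6.00, 5.55 and 7.41 TPM and from 25.1, 28.6 and 24.3 to 5.49, 4.79 and 7.20 TPM (differences -2.46 ± 0.16 and -2.0 ± 0.12, called by limma). Markers of fibroblasts moved as well: 2 of 7 were lower in CT26NYESO1, with a median of -0.73 over the 7 against 0.0 over all genes. Dcn, the matrix proteoglycan decorin, went from 333, 506 and 337 TPM to 81.2, 87.7 and 57.5 TPM (difference -2.36 ± 0.42, limma adjusted p = 0.00048). The other was Pdgfrb, a growth factor receptor of fibroblasts and pericytes, named after its values were seen (difference -1.26 ± 0.33, limma adjusted p = 0.02). The summed fibroblast genes were 1325 ± 42 TPM in CT26 and 823 ± 181 TPM in CT26NYESO1 (SD, n = 3), and their part in the keratin and claudin values was not tested. Of 14 tested tight junction genes that are not claudins, 1 was higher in CT26NYESO1, Pard6b (difference 1.35 ± 0.27, limma adjusted p = 0.0016). Of 11 epithelial adhesion genes, Pkp3 was higher (1.10 ± 0.29, limma adjusted p = 0.025) and Jup lower (-1.08 ± 0.27, limma adjusted p = 0.016). These 3 genes were named after their values were seen. The leukocyte, endothelial, epidermal, melanocyte and erythroid lists had no called member in this pair. The summed epidermal genes were nevertheless 346 ± 18 TPM in CT26 and 139 ± 15 TPM in CT26NYESO1 (SD, n = 3), and their part in the keratin values was not tested. The labels do not say whether CT26NYESO1 is 1 clone of CT26, so the antigen and a clone's own features cannot be told apart.

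In MC38OVA against MC38, limma called no member (1.31% of all genes were called), and 2 of 23 had an unadjusted p under 0.05. The largest difference was 0.65 for Krt80, and the smallest adjusted p was 0.22, for Cldn1. The difference between the pairs, (MC38OVA - MC38) - (CT26NYESO1 - CT26), was called for 3 members (2.62% of all genes): Krt20 (4.56 ± 0.22, limma adjusted p = 1.4e-13), Krt80 (1.68 ± 0.40, adjusted p = 0.016) and Cldn6 (-2.47 ± 0.20, adjusted p = 2.1e-09). Krt20 and Cldn6 were near 0 in both MC38 lines, so for them this difference is that of the CT26 pair. The Krt80 value lost its call in limma without CT26 replicate 1 (adjusted p = 0.072), CT26NYESO1 replicate 2 (adjusted p = 0.061) or MC38OVA replicate 3 (adjusted p = 0.054).

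**Figure D5:**
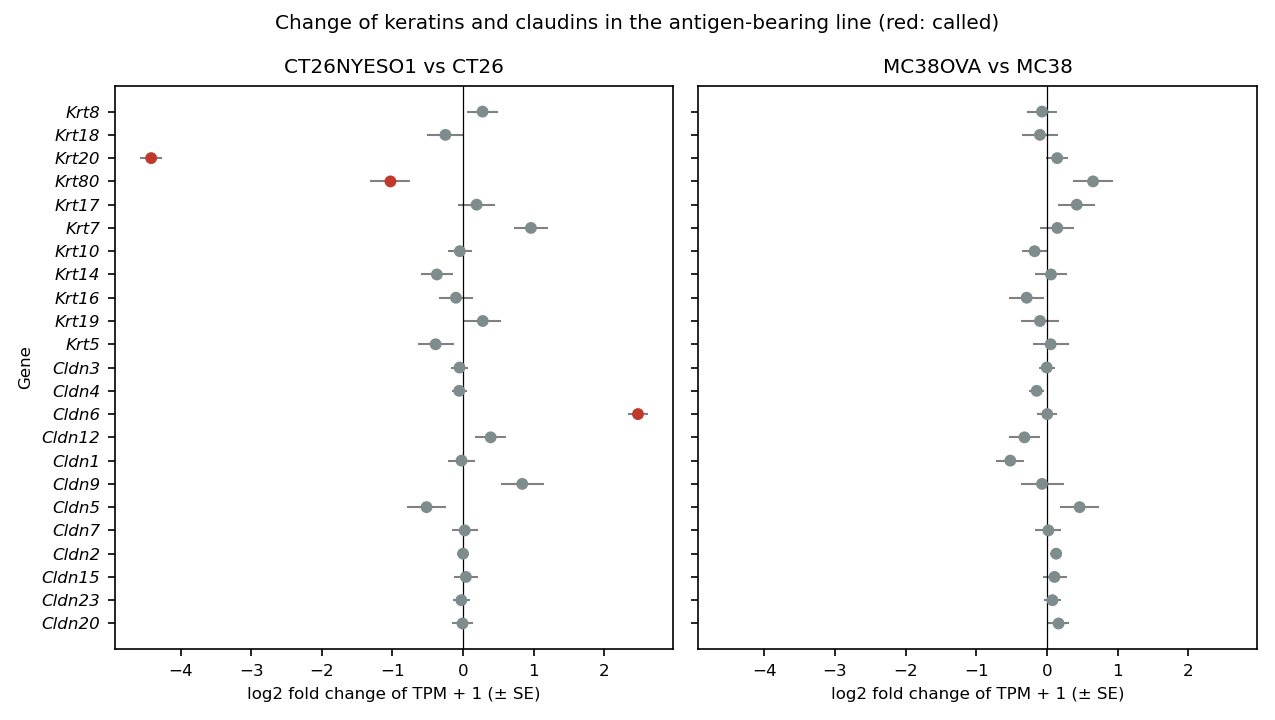
Difference in log2(TPM + 1) of 23 members between the line carrying an antigen and its parent, CT26NYESO1 against CT26 on the left and MC38OVA against MC38 on the right, with points at the limma estimate, bars of ± SE, and red for called members. Cldn6 (2.48), Krt80 (-1.03) and Krt20 (-4.42) are red on the left and no member is on the right.

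The promoter windows of the 2 genes that moved most in the CT26 pair are given for comparison, chr11:99438154-99438403 (minus strand) for Krt20 and chr17:23679115-23679248 (plus strand) for Cldn6, the latter up to the gene's first base in GENCODE M21. Capitals again mark the 5 motifs.
Krt20: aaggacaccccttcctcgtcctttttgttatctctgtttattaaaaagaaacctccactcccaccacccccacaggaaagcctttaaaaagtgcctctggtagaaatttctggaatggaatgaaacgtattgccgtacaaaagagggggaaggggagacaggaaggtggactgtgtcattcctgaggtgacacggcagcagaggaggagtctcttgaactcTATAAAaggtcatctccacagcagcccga
Cldn6: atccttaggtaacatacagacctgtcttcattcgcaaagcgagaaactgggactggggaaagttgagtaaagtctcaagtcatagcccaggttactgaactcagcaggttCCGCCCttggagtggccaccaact
Krt20 has a TATAAA 29 bases before its start, a motif in 12.4% of all windows, and this stretch of Cldn6 has a GC box and no TATAAA. Promoters of 54 of the 73 members were in the RefSeq table, in 63 windows with a median GC content of 50.4% against 52.4% over all windows.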

How the data were processed

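RNA-seq of 30 mouse libraries was analysed from 1 table of TPM by gene symbol. Per the submitters' processing notes, the authors made these TPM from reads trimmed with Trim Galore 0.6.5, aligned with STAR 2.7.3a to mm10, and summarised by gene with StringTie 2.1.2. No source used here names the gene annotation. TPM keep no depth, and every deposited column sums to 1000000.

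A gene was tested if 3 or more libraries held it at 1 TPM or above, which left 17944 genes, as log2(TPM + 1), where the pseudocount of 1 understates changes of low genes. A limma fit (3.58.1, R 4.3.3, trend in the variance, 20 residual degrees of freedom) held a mean per line. Contrasts set each line against the average of the remaining 9, compared 3 related pairs (CT26NYESO1 and CT26, MC38OVA and MC38, B16F10 and B16F1), the 3 pairs among Renca, EMT6 and LL2, and the difference between the antigen pairs, with Benjamini-Hochberg adjustment over all genes tested within each. SE are those of the fit. On simulated data for Renca against the other lines over 17944 genes, the fit recovered 96% of genes changed by 1.5 (log2). It recovered 100% of those changed by 3, with 2 false calls. These figures are for all genes together. Recovery and false calls among low genes, as most members are, was not tested.

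Members, lists and comparisons were chosen with earlier results of these data known. Named are the 12 keratins and 12 claudins with the highest line means and the simple keratins, with up to 5 called rises and falls per comparison, of each list up to 4 genes with the widest range and 7 set marker genes, and 5 genes most like Krt8 and Cldn3 each. Krt1, Krt25, Krt87, Cldn8, Cldn10, Cldn14, Cldn16, Cldn17, Cldn19, Cldn24 and Krt79, and the genes overlapping members, were named after their values were seen. Alternatives were a pseudocount of 0.1, no filter, median-ratio scaling, no fold threshold, leaving out each library, the replicate number as a block, related lines averaged into 7 families, a reference without EMT6, LL2 and Renca, and fits of 6 libraries. Coordinates and neighbours are from GENCODE M21 (GRCm38), in which all 73 members were found. Python 3.11.15, numpy 2.4.6, pandas 2.3.3 and matplotlib 3.10.9 were used.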

Additional observations from a re-analysis of the deposited data

Results flagged for a closer look

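The change from parent to antigen-bearing line differed between the MC38 and the CT26 pair for 3 members, by limma's test of (MC38OVA - MC38) - (CT26NYESO1 - CT26) on log2(TPM + 1). The difference was 4.56 for Krt20, 1.68 for Krt80 and -2.47 for Cldn6. Krt20 and Cldn6 were near 0 in all 6 MC38 and MC38OVA libraries. Krt80 was the member of the 3 that both pairs held well above 0, and it moved in opposite directions: from 10.6 ± 0.83 TPM in MC38 to 17.3 ± 2.4 TPM in MC38OVA, which was not called, and from 25.9 ± 11 TPM in CT26 to 11.6 ± 2.1 TPM in CT26NYESO1 (SD, n = 3).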

How the results depend on the processing

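Of 146 calls of single members, 145 were kept with a pseudocount of 0.1, 145 without a filter, and 138 with median-ratio scaling. In the fits that left out 1 library, 113 were tested and called every time, 13 lost their call at least once, and 20, of members that then failed the filter, were not tested in some fits. Of 80 calls against the other lines, 66 were kept with related lines averaged into families and 62 with EMT6, LL2 and Renca out of the reference. The last turned Krt8 to 0.20 in CMS5a, 0.22 in CT26NYESO1 and 0.026 in MC38. With a pseudocount of 0.1 the members called were 17 in B16F1 (7 in the fit reported), 19 in B16F10 (10), 15 in CMS5a (9), 15 in CT26 (6), 14 in CT26NYESO1 (7), 12 in LL2 (7), 10 in MC38 (6), 9 in MC38OVA (4) and 3 in B16F10 against B16F1 (1). With no fold threshold they were 20 in B16F1, 20 in B16F10, 17 in CMS5a, 15 in CT26, 15 in CT26NYESO1, 18 in EMT6 (9), 14 in LL2, 13 in MC38, 11 in MC38OVA and 4 in B16F10 against B16F1. The share of all genes called with that pseudocount or without the fold threshold is not given here. These counts therefore show how the calls depend on the setting and say nothing particular to the members. Leaving out 1 library gave 1 to 2 calls in B16F10 against B16F1 (2 without B16F1 replicate 3) and 2 to 5 in CT26NYESO1 against CT26 (5 without CT26 replicate 2, 2 without CT26 replicate 1 or 3 or CT26NYESO1 replicate 2 or 3). Without any 1 Renca library, 4 members were no longer tested and the calls in Renca went from 15 to 10. Median-ratio scaling shifted the median difference of all genes by 0.33 in B16F10, 0.21 in B16F10 against B16F1, -0.13 in CMS5a, -0.13 in MC38, 0.12 in B16F1, -0.12 in EMT6 and 0.12 in Renca against EMT6, and in B16F10 against B16F1 the share of called genes that were higher was 21.7%, and 41.4% scaled. Replicate numbers do not pair the libraries: the median correlation of deviations was 0.0048 over 135 same-numbered pairs and 0.0006 over differently numbered pairs of different lines. Of the same-numbered pairs 46 were correlated over 0.1 (-0.47 to 0.42). For 10 of 30 libraries the mean correlation was highest with libraries of their own number. With the replicate number as a block, 146 of 146 calls were kept, with 15 in Renca. The causes of these differences were not tested.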
